A study of Mus musculus with 2 samples.

Results

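The genes described here encode the proteins of the cytosolic ribosome. They were taken by name: every gene called Rpl or Rps with a number (and a closing a, l, x or y where present), the stalk genes Rplp0 to Rplp2, and Rpsa. This gave 82 genes of 34400 gene identifiers, 32 named for the small subunit and 50 for the large, and all 82 were listed in both deposited tables. GENCODE M21 calls 79 of them protein coding. The other members, Rps4l, Rpl6l and Rpl32l, are intronless copies that it classes as processed pseudogenes. Genes such as Rps3a1, Rack1 and Fau also encode ribosomal proteins but fall outside the name rule. Rpl10l fits the rule but is not among the 82, and it entered only the counts of start sequences below.

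The ribosome joins a small subunit, which holds the mRNA and reads the codons, to a large subunit, which forms the peptide bonds. Each subunit carries its proteins in fixed stoichiometry, and the genes are known for high mRNA levels. Their mRNAs typically start with a C followed by a run of pyrimidines, the 5′ terminal oligopyrimidine (TOP) motif, through which mTOR signalling and the RNA-binding protein LARP1 control their translation and stability. Growing tumour cells and activated lymphocytes are known for high ribosome production, and mature neutrophils for little.

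Tumours were raised in mice by injecting CT26, a mouse colorectal cancer line, at the cecal junction, although the design text also speaks of subcutaneous growth. Once tumours measured 50 to 100 mm³, mice received either IgG (the control library) or SLC7A11-Ab, an antibody against the cystine transporter SLC7A11 (the antibody library). Both were given at 10 mg/kg every 2 days. Strain, age, sex and the number of mice behind a library are not given in the sources used here. Tumours were digested to single cells and sequenced with the 10x Genomics 3′ kit as 1 library per group. Nothing below therefore has a replicate check, no test across samples was possible, and every interval covers counting error only.

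The control library held 13910 barcodes with 129044329 UMIs (distinct captured transcripts) and the antibody library 12153 barcodes with 143658800 UMIs, and 39 barcode sequences occurred in both. The labels name the cells goblet cells, the mucus-secreting cells of the gut, but their defining transcripts were nearly absent: Muc2 had 6 UMIs in each library, Tff3 had 0 and 2, and Agr2 had 0 and 1. Barcodes were therefore sorted into 6 classes by marker UMIs. Keratin-positive barcodes (2896 control and 1515 antibody) had at least 1 Krt8 or Krt18 UMI, no Y-linked UMI and no Ptprc UMI, and their Epcam count was 1 in each library, so they are not given a cell type name. The others were macrophage-like (976 and 1224), CD8 T-like (95 and 579), NK-like (77 and 205), neutrophil-like (159 and 243) and fibroblast-like (64 and 78). Together the classes held 30.8% of the filtered control barcodes and 31.9% of the antibody barcodes. Median depth differed between libraries within a class, at 12160 and 19434 UMIs in keratin-positive and 686 and 781 in neutrophil-like barcodes. Dcn, a fibroblast transcript, was counted at 381 and 409 CPM (a gene's UMIs scaled to the class total) in macrophage-like and at 687 and 628 CPM in CD8 T-like barcodes, against 4150 and 4991 CPM in fibroblast-like ones. It had 1001 and 878 CPM in keratin-positive barcodes, 2.63-fold and 2.15-fold above macrophage-like ones, and 1375 and 1029 CPM in neutrophil-like ones. The part of free RNA in the values below was not tested. Within a class, fewer cells with a transcript and less of it per cell cannot be told apart in summed counts.

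The sequences around the annotated transcription start were searched for the pyrimidine run of the TOP motif. Whether the annotated starts are those used in these cells was not tested. RefSeq (GRCm38.p6) gave starts for 61 genes that fit the name rule. Rpl10l, which is not one of the 82, is among these 61. The letters CTTTC and every other C followed by 4 C or T bases count as the run. A C at the start followed by 4 more C or T bases stood at an annotated start of 14 of them, or 23.0%, Rpl32l among them, against 2.96% of 26964 other genes. Within 10 bases on either side of the start, such a run on the gene's own strand occurred in 63.9% of the 61 genes and 34.3% of the other genes. The windows below hold the 15 bases before the start and the first 15 of the transcript, 5′ to 3′, with the pyrimidine run in capitals where it begins at the start. The first 7 have the run and were chosen to span high and low ratios: in keratin-positive barcodes members with the run lay between -0.30 and 0.53. The closing pair are Rpl13 and Rps2, the 2 genes that stood apart. Their RefSeq starts lack the run, as do those of most of the 61 genes. Rps21 has a further annotated start without the run, and the RefSeq start of Rps2 lies inside the longer GENCODE gene.

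Rps27: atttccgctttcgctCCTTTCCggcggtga
Rpl38: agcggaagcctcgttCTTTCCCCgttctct
Rps21: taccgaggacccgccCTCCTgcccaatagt
Rplp2: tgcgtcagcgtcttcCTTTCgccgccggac
Rps15a: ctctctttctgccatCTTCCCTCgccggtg
Rps6: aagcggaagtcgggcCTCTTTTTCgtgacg
Rps18: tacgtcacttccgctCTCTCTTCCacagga
Rpl13: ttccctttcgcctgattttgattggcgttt
Rps2: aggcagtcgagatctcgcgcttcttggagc

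In GRCm38 these windows lie at chr3:90213634-90213663 on the minus strand (Rps27), chr11:114668565-114668594 plus (Rpl38), chr2:180257364-180257393 plus (Rps21), chr7:141447636-141447665 plus (Rplp2), chr7:118116133-118116162 minus (Rps15a), chr4:86857353-86857382 minus (Rps6), chr17:33955651-33955680 minus (Rps18), chr8:123102335-123102364 plus (Rpl13) and chr17:24720048-24720077 plus (Rps2). Members with the run at the start had a median log2 ratio of antibody over control of 0.10 in keratin-positive barcodes (13 genes, Rpl13 and Rps2 left out), and members without it -0.19 (43 genes). Their coding sequences also differed in length, with medians of 130 and 146 codons, and the part of the motif was not tested. Some members without the run at the start have one within 10 bases of it. The split therefore need not separate TOP mRNAs from others.

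Rpl13 and Rps2 were far higher in the antibody library in every class. Rpl13 encodes a protein of the large subunit. It had 209 CPM in control and 2835 CPM in antibody keratin-positive barcodes, from 8908 and 97061 UMIs, a log2 ratio of 3.76 (95% counting interval 3.73 to 3.79). In macrophage-like barcodes it had 116 and 1366 CPM, in CD8 T-like 134 and 2143, and in NK-like 147 and 1873. Neutrophil-like barcodes had 133 and 1072 CPM, fibroblast-like ones 127 and 1505. Its log2 ratio thus lay between 2.98 and 3.98 over the 6 classes, and the antibody level was above the control level in each.

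Rps2 encodes a small-subunit protein at the entry of the mRNA channel. It had 102 CPM in control and 1947 CPM in antibody keratin-positive barcodes, from 4334 and 66673 UMIs, a log2 ratio of 4.26 (interval 4.21 to 4.30). The levels were 81.4 and 871 CPM in macrophage-like, 55.3 and 1193 in CD8 T-like, and 88.3 and 891 in NK-like barcodes. Neutrophil-like barcodes had 55.2 and 668 CPM, fibroblast-like ones 86.3 and 1111. Its log2 ratios lay between 3.30 and 4.38. Among members with at least 100 counts in a class, no other lay at least 1 log2 unit from the family median in 3 or more classes, the distance used to call a member apart. Rps4l, with fewer counts, is described below. The control counts of Rps2 were small outside the first 2 classes, 14 UMIs in CD8 T-like and 12 in neutrophil-like barcodes, and the intervals there reached from 3.68 to 5.30 and from 2.76 to 4.57.

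Entries named as pseudogenes of Rpl13 or Rps2 were 16, counted here over the whole libraries and not by class. Of them 15 had a log2 ratio above 0, 10 had an interval above 0 and 6 had one that held 0. For all ribosomal protein pseudogene entries the class value was 44 of 96 above 0, among those with at least 20 counts in keratin-positive barcodes. In the whole libraries Rps2-ps10 had 370 control and 4673 antibody UMIs, Rps2-ps5 had 15 and 235, and Rps2-ps7 had 0 and 104. Rpl13-ps3 had 7 and 123. The ratio was smaller for Rps2-ps9, with 69 and 108 UMIs, and for Rpl13-ps1, with 18 and 42. Reads of near-identical copies may be split between such entries by the counting, so these values are uncertain. Rpl13 lies at chr8:123102350-123105244 and Rps2 at chr17:24718116-24721929, both on the plus strand of GRCm38. Their coding sequences are 211 and 293 codons long. Some genes outside the family also had large ratios, and the 3 given here were chosen after their values were seen. In keratin-positive barcodes Cox5a, a subunit of cytochrome oxidase, had 12.2 and 579 CPM (5.57), the transcription factor gene Junb had 29.8 and 1075 CPM (5.17), and AY036118 had 0.845 and 58.7 CPM (6.10). The deposited tables also differed in the identifiers they list, with 3106 only in the control table and 2768 only in the antibody table. With 1 library per group, treatment and any difference in how the libraries were made cannot be told apart.

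**Figure D1:**
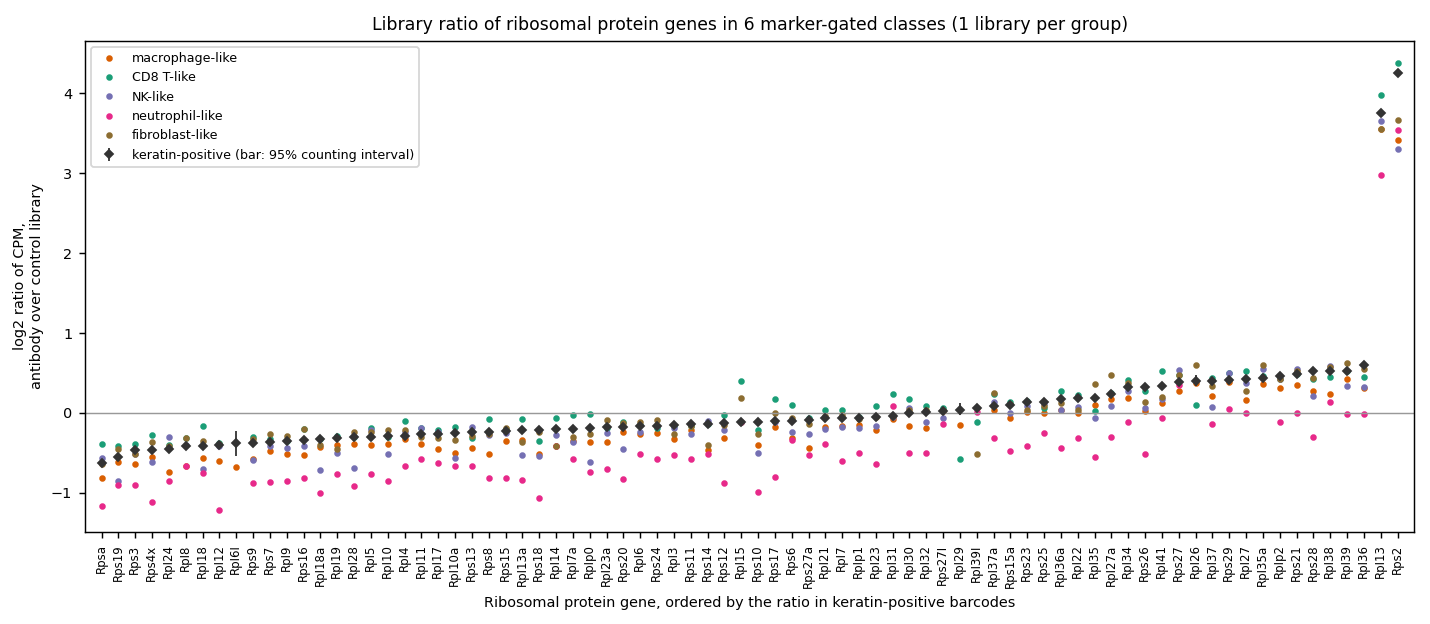
Log2 ratio of antibody over control CPM (vertical axis) for ribosomal protein genes with at least 100 summed counts (1 not shown), ordered by its value in keratin-positive barcodes (diamonds, bars are 95% counting intervals), with the other 5 classes as coloured points. Rpl13 and Rps2 sit between 2.98 and 4.38 at the right, and the other genes form a continuous band with the neutrophil-like points lowest.

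Outside neutrophil-like barcodes the family median was near that of all genes. In keratin-positive barcodes the family median log2 ratio was -0.12, against -0.19 for the 15853 genes with at least 20 summed counts. The medians of family and all genes were -0.25 and -0.17 in macrophage-like, -0.05 and -0.14 in CD8 T-like, -0.19 and -0.05 in NK-like, and -0.12 and -0.14 in fibroblast-like barcodes. Neutrophil-like barcodes were lower, with a family median of -0.56 against -0.17, but their sums were set by a minority of deep barcodes, as described below. These directions depend on the scaling. The genes used for median-of-ratios scaling had a median of -0.19 to -0.26 on class totals. With that scaling, which sets it to 0, the family median was 0.07 in keratin-positive, -0.05 in macrophage-like, 0.21 in CD8 T-like, 0.02 in NK-like, -0.31 in neutrophil-like with 0.13 in fibroblast-like barcodes.

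Few members passed 2-fold. In keratin-positive barcodes 2 of 80 members with at least 20 counts were at least 2-fold higher in the antibody library, where 10.3% of all genes were, and 0 were 2-fold lower, where 4.67% of all genes were. Of the 80 members, 79 had at least 100 counts there. Counting error alone can carry a gene near the minimum of 20 past 2-fold, so the shares of all genes are not matched for counts. CD8 T-like and fibroblast-like barcodes gave the same counts of 2 and 0, beside 12.3% and 8.78% of all genes in the first and 10.4% and 5.45% in the second. In each of these classes the 2 members were Rpl13 and Rps2. Macrophage-like barcodes added Rps4l (12 and 54 UMIs) among 3 higher members, beside 8.87% of all genes, and had 0 lower, beside 4.44%. NK-like barcodes had 2 higher, beside 12.1%, and 1 lower, Rpl39l (37 and 30 UMIs), beside 8.83%. That Rpl39l ratio rests on few barcodes: it was -1.14, but 0.59 without barcodes marked as doublets by Scrublet and 0.29 with each barcode weighted equally. Neutrophil-like barcodes had 2 higher, beside 12.0%, and 6 lower, beside 11.1%, with Rpsa and Rpl12 among them. With median-of-ratios scaling the neutrophil-like count past 2-fold was 2 in place of 8.

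Most members kept their side of the family median across classes. Of 74 members with at least 100 counts in every class, 28 lay above the family median in all 6 classes and 26 below it in all 6. On the scale of class totals 5 were above 0 in all classes, 41 below 0 in all, and 28 had both signs. The classes come from the same pair of libraries, so this is no independent repeat.

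Among members of the large subunit, short proteins had the higher ratios. Rpl36 had 802 CPM in control and 1216 CPM in antibody keratin-positive barcodes, a log2 ratio of 0.60 (interval 0.58 to 0.62), the highest after Rpl13 and Rps2. Rpl39, which lines the exit tunnel of the nascent chain, had 1870 and 2700 CPM (0.53). Rpl38 had 485 and 700 CPM (0.53, interval 0.50 to 0.56). Rpl38 and Rpl39 were higher in the antibody library in the CD8 T-like, NK-like, macrophage-like and fibroblast-like classes too, by 0.24 to 0.62. Only in neutrophil-like barcodes did their intervals hold 0, at -0.33 to 0.62 for Rpl38 and -0.27 to 0.24 for Rpl39. Rpl41, the shortest member at 25 codons, had 2608 and 3310 CPM in keratin-positive barcodes (0.34) and, among members with 100 counts, the highest ratio after Rpl13 and Rps2 in CD8 T-like barcodes, 0.53 (interval 0.39 to 0.68).

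Large-subunit members with longer products were lower. Rpl4, at 419 codons the longest member, had 2470 and 2026 CPM in keratin-positive barcodes (-0.29). Rpl5 and Rpl11, which as free proteins can bind the p53 regulator Mdm2, had 2407 and 1961 CPM (-0.30) and 2037 and 1700 CPM (-0.26). Rpl24 had 548 and 400 CPM (-0.45) and was among the lowest 3 in macrophage-like barcodes at 356 and 213 CPM (-0.74). Rpl12 had the lowest ratio of all in neutrophil-like barcodes, where 2686 CPM stood against 1160 (-1.21).

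The acidic stalk, through which elongation factors are recruited, split within itself. Its base Rplp0 (2348 and 2064 CPM, -0.19) and its member Rplp1 (12108 and 11575 CPM, -0.06) had ratios below 0 in keratin-positive barcodes, though within the shift of -0.19 that median-of-ratios scaling removes there. Rplp2, the partner of Rplp1, was higher at 3425 and 4698 CPM (0.46, interval 0.45 to 0.47). Rplp2 was above Rplp1 in log2 ratio in every class, at 0.31 against -0.15 in macrophage-like and -0.12 against -0.50 in neutrophil-like barcodes. Median-of-ratios scaling moves both genes by the same amount and leaves this order.

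Several small-subunit members had low ratios. Rpsa, the small-subunit protein also known as a laminin receptor precursor, had 4961 and 3196 CPM in keratin-positive barcodes, a log2 ratio of -0.63 (interval -0.65 to -0.62). It was lower in antibody macrophage-like barcodes at 2659 and 1512 CPM (-0.81) and in antibody neutrophil-like barcodes at 2493 and 1114 CPM (-1.16). Rps19, whose human counterpart is mutated in Diamond-Blackfan anaemia, had 2912 and 1986 CPM in keratin-positive barcodes (-0.55) and the lowest ratio among members with 100 counts in NK-like barcodes, 1967 against 1090 CPM (-0.85). Rps3, near the mRNA entry, had 4457 and 3224 CPM (-0.47). Rpsa, Rps19 and Rps3 were lower in the antibody library in every class, with every interval below 0, and they lay below the family median in every class as well.

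Other small-subunit members were higher. Rps28 had 723 and 1035 CPM in keratin-positive barcodes (0.52), Rps21 had 2784 and 3906 CPM (0.49) and Rps29 had 1052 and 1399 CPM (0.41). Rps27, a zinc-finger member, had 1137 and 1491 CPM (0.39). Among members with 100 counts it was the highest after Rpl13 and Rps2 in neutrophil-like barcodes, at 671 and 860 CPM (0.35, interval 0.06 to 0.66). Rps6, the substrate of the S6 kinases downstream of mTOR, was near the family median, with 496 and 463 CPM (-0.10). Rps18 had 2318 and 1989 CPM (-0.22).

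Ratios were lower for members with longer products. Over 76 coding members with at least 100 counts in keratin-positive barcodes, Rpl13 and Rps2 left out, the rank correlation of log2 ratio with codons was -0.74 and Pearson's r with log2 codons was -0.68. The rank correlation was -0.73 in macrophage-like, -0.64 in CD8 T-like, -0.72 in NK-like, -0.60 in neutrophil-like with -0.67 in fibroblast-like barcodes (73 to 76 genes). Rpl13 and Rps2 go against this order. With them kept in keratin-positive barcodes (78 genes), the rank correlation was -0.64 and Pearson's r was -0.13. These are descriptions across genes, which are not replicates and share the same libraries. In keratin-positive barcodes the 11 members under 100 codons had a median of 0.40 and all were above 0. The 27 members of 100 to 149 codons had a median of 0.10 with 15 above 0. The 19 members of 150 to 199 codons had a median of -0.26 with 1 above 0, and the 19 longer members -0.24 with 0 above 0.

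Other genes showed little relation of this kind. Over 4817 other coding genes within the members' range of codons the rank correlation was -0.03 in keratin-positive barcodes, and it lay between -0.04 and 0.06 over the 6 classes. Over 77 mitochondrial ribosomal protein genes, whose products serve the separate ribosome of mitochondria, it was 0.13 in keratin-positive and 0.04 in macrophage-like barcodes, though -0.38 over the 38 genes counted in fibroblast-like barcodes. These differences between gene sets were not tested. Among members, codons and exon number went together (rank correlation 0.75), and the ratio had a rank correlation of -0.64 with exons, -0.42 with mRNA length, -0.40 with the level itself and 0.01 with GC content in keratin-positive barcodes. With keratin-positive barcodes of 10000 to 20000 UMIs only (1323 and 582), chosen after seeing the data, the rank correlation with codons was -0.72. Over every setting tried, with Rpl13 and Rps2 left out, it lay between -0.75 and -0.45.

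**Figure D2:**
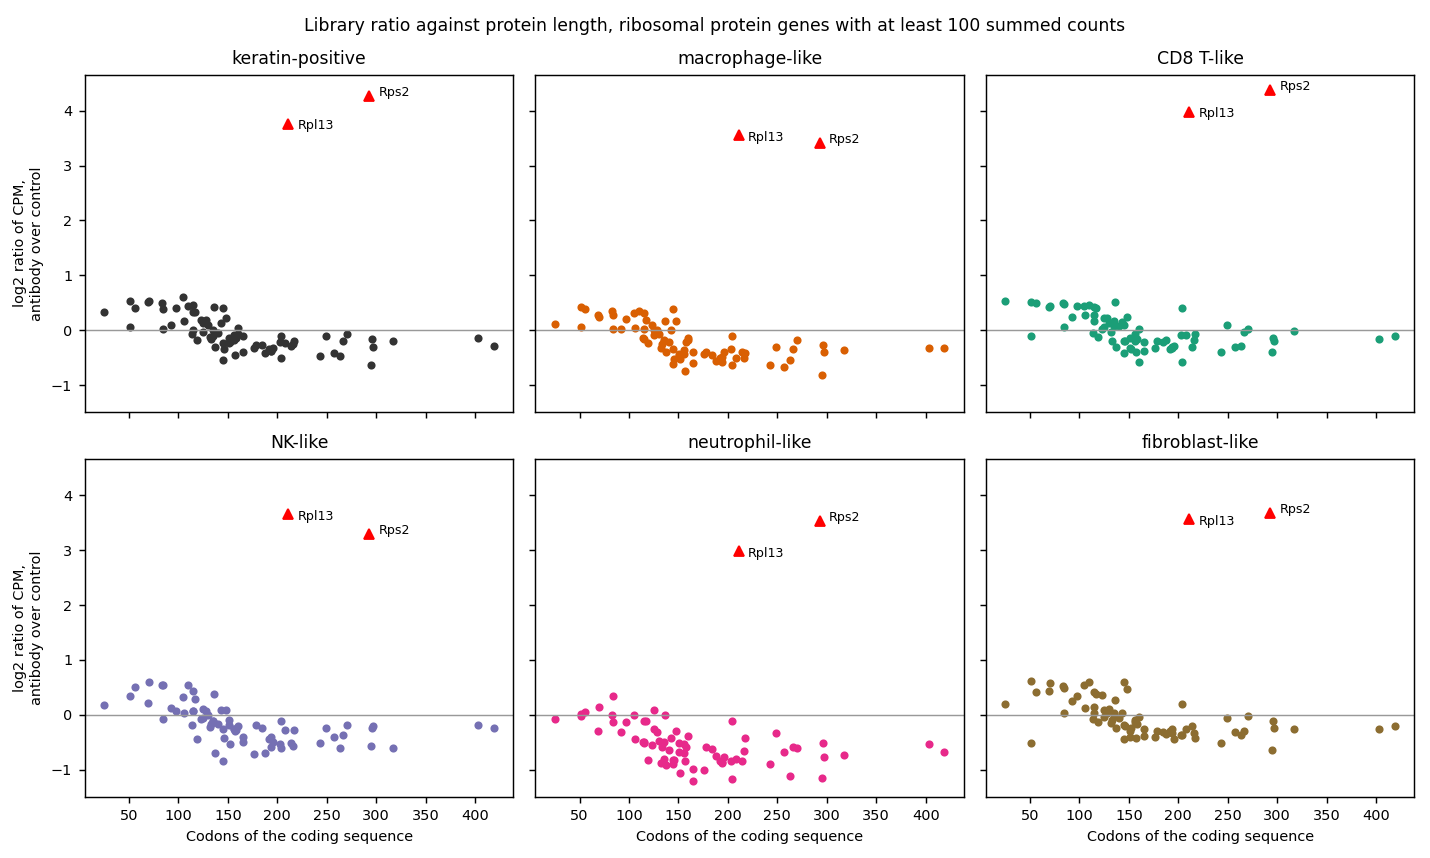
Codons of the coding sequence (horizontal axis) against the log2 ratio of antibody over control CPM (vertical axis) for coding members with at least 100 summed counts, 1 panel per class, with Rpl13 and Rps2 as red triangles. In keratin-positive barcodes the 11 members under 100 codons all lie above 0 and none of the 19 members of 200 codons or more does, Rpl13 and Rps2 left out.

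Ribosomal protein transcripts made up a large part of all UMIs. Their share was 20.2% in control and 19.0% in antibody keratin-positive barcodes. It was 12.2% and 10.3% in macrophage-like, 16.1% and 15.8% in CD8 T-like, and 14.9% and 13.1% in NK-like barcodes. Neutrophil-like barcodes had 11.1% and 7.37%, fibroblast-like ones 12.0% and 11.3%. Clopper-Pearson 95% intervals were narrow, for example 16.00 to 16.29% in control CD8 T-like barcodes. The control share was the higher in all 6 classes on this scale. The gap changed sign with median-of-ratios scaling in keratin-positive, CD8 T-like, NK-like and fibroblast-like barcodes, where the log2 ratios were 0.10, 0.23, 0.02 and 0.17. In keratin-positive barcodes of 10000 to 20000 UMIs it was 0.02 in place of -0.09.

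The small subunit accounted for more of the gap than the large. In keratin-positive barcodes small-subunit genes held 9.48% of control and 8.54% of antibody UMIs (log2 ratio -0.15), and large-subunit genes 10.7% and 10.4% (-0.04). The corresponding log2 ratios were -0.32 and -0.18 in macrophage-like, -0.10 and 0.03 in CD8 T-like, and -0.24 and -0.15 in NK-like barcodes. Neutrophil-like barcodes had -0.69 and -0.51, fibroblast-like ones -0.14 and -0.04. The 2 sets share a denominator, so their order does not depend on the scaling. Rpl13 and Rps2 raised the antibody share: without them it was 18.5% in keratin-positive barcodes, against 20.1% in control.

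The neutrophil-like sums were set by a minority of deep barcodes. The median share over single barcodes was 4.16% in control and 3.83% in antibody neutrophil-like barcodes, well under the summed shares. Barcodes with at least 1000 UMIs were 31 of 159 in control and held 60.5% of the class UMIs, with a family share of 15.5% and 2119 CPM of Dcn. Those under 1000 UMIs had a share of 4.36% and 233 CPM of Dcn. In the antibody library the shares were 10.2% in 54 deep barcodes, with 1762 CPM of Dcn, and 3.98% in 189 shallow ones, with 157 CPM. The part of free RNA or of a second cell type in the deep barcodes was not tested.

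**Figure D3:**
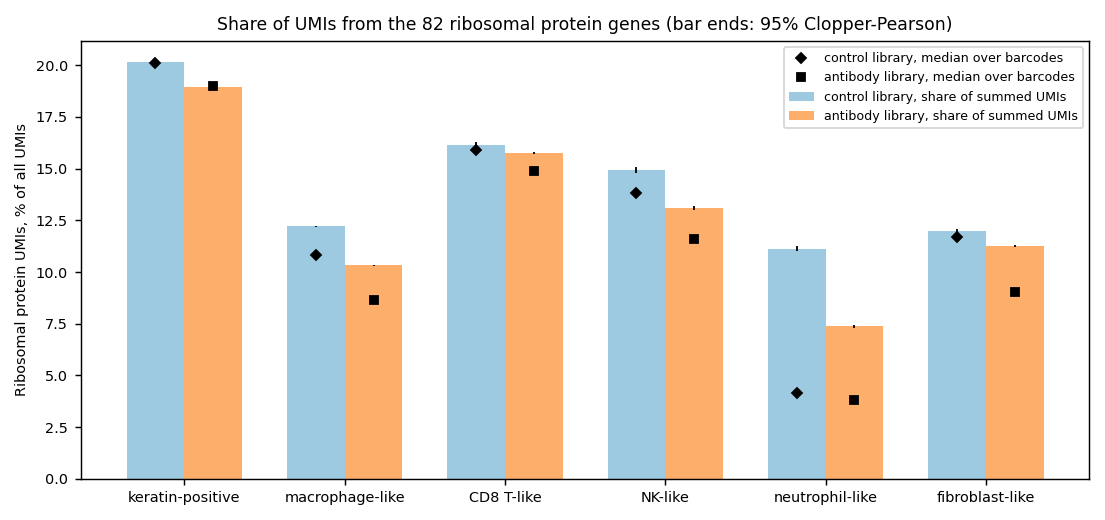
Percent of all UMIs that came from the 82 ribosomal protein genes (vertical axis) by class and library, with bars for summed UMIs (95% Clopper-Pearson intervals) and symbols for the median over barcodes. Keratin-positive barcodes are highest at 20.2 and 19.0%, and in neutrophil-like barcodes the medians of 4.16 and 3.83% lie far below the bars.

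Within each library the family was at its highest level in keratin-positive barcodes. The median log2 difference of a class from keratin-positive barcodes was -0.71 in control and -0.88 in antibody macrophage-like, -0.32 and -0.32 in CD8 T-like, -0.47 and -0.58 in NK-like, and -0.75 and -0.73 in fibroblast-like barcodes. The medians of all genes for these differences were between -0.13 and 0.29. They include genes with few or no counts in a small class, which the prior count can place higher there. In neutrophil-like barcodes the family difference was -0.83 and -1.35, and it was -1.80 and -2.08 with each barcode weighted equally, a setting added after seeing the data. CD8 T-like barcodes were the nearest to keratin-positive ones in both libraries and neutrophil-like barcodes the farthest, except that with median-of-ratios scaling the farthest control class was fibroblast-like at -0.86, with neutrophil-like at -0.65. The order of the macrophage-like and fibroblast-like medians differed between libraries. The keratin gate takes deeper barcodes, and the part of depth in these differences was not tested.

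Nearly all members shared the direction of their family median. Against keratin-positive barcodes, 79 of 79 members were lower in both libraries in macrophage-like barcodes, where 48.0% of all genes were. In CD8 T-like barcodes it was 66 of 79, beside 32.1%, and in NK-like ones 75 of 79, beside 28.3%. Neutrophil-like barcodes had 79 of 79, beside 37.0%, and fibroblast-like ones 79 of 80, beside 35.1%. Members at least 2-fold lower in both libraries were 4 in macrophage-like (Rpl39l, Rpl7, Rplp0 and Rpl13a), beside 11.7% of all genes, and 1 each in CD8 T-like and NK-like (Rpl39l), beside 7.88% and 5.70%. They were 2 in fibroblast-like (Rpl39l and Rpl32), beside 5.43%, and 13 in neutrophil-like barcodes, beside 7.02%. Members at least 2-fold higher in both libraries were 0 in macrophage-like, CD8 T-like, NK-like and neutrophil-like barcodes, beside 14.1%, 13.2%, 15.1% and 15.3% of all genes, and 1 in fibroblast-like, Rps4l, beside 11.7%. The shares of all genes took genes with 20 counts in the class and keratin-positive barcodes together. Some of these had few or no counts in a small class, where the prior count of 0.5 can place them higher. Most members had large counts, so the shares of all genes are not a matched background.

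Against that background 8 members of both subunits were higher in CD8 T-like barcodes of both libraries, beside 42.0% of all genes, with the same limit. Rps14 was 0.36 above keratin-positive barcodes in CD8 T-like barcodes of both libraries, where the family median was -0.32. It had 4383 CPM in keratin-positive and 5638 CPM in CD8 T-like control barcodes, and 3984 and 5129 CPM in the antibody library. In NK-like barcodes Rps14 was 0.18 higher in control and 0.22 higher in antibody, but with median-of-ratios scaling the antibody value was -0.14. Rps13 (0.45 and 0.37) and Rps15a (0.37 and 0.41) had positive differences in CD8 T-like barcodes too. Rpl27, of the large subunit, had 0.17 (interval -0.05 to 0.37) and 0.27 (0.21 to 0.32). Rpl11 had 0.14 (0.01 to 0.26) and 0.21 (0.17 to 0.25), with a control value of -0.02 under median-of-ratios scaling.

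**Figure D4:**
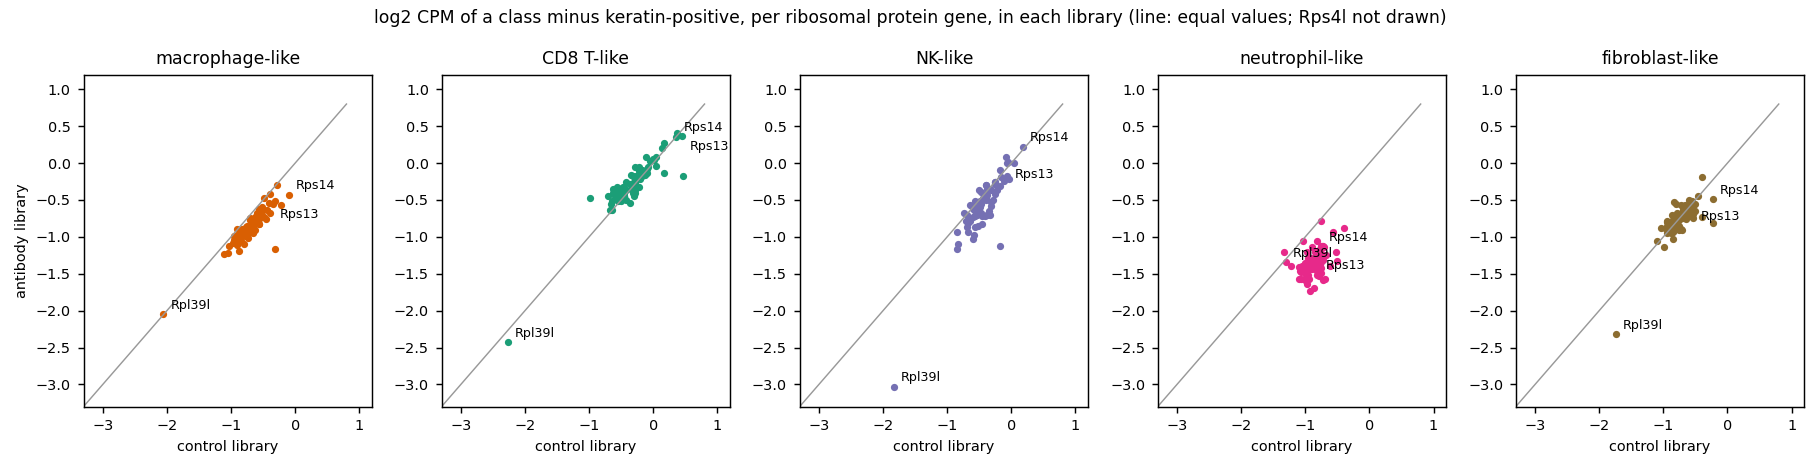
Log2 CPM of a class minus that of keratin-positive barcodes in the control library (horizontal axis) and in the antibody library (vertical axis), 1 point per member with at least 20 counts in the class in both libraries, 1 panel per class, Rps4l not drawn. Rpl39l lies apart at the lower left in macrophage-like, CD8 T-like, NK-like and fibroblast-like barcodes, and Rps14 lies at the upper right in CD8 T-like ones.

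Rpl39l, a paralogue of Rpl39 best known from the testis, had its highest level in keratin-positive barcodes. It had 561 CPM there in control and 583 CPM in the antibody library, and 96.5% and 97.2% of these barcodes held at least 1 of its UMIs. In macrophage-like barcodes it had 135 and 141 CPM, in CD8 T-like 114 and 108, in NK-like 155 and 70.2, and in fibroblast-like 167 and 117. Keratin-positive barcodes were thus 4.17-fold (interval 3.86 to 4.51) and 4.14-fold (3.92 to 4.38) above macrophage-like ones. They were 4.90-fold and 5.39-fold above CD8 T-like ones. In neutrophil-like barcodes, where the whole family is lower, it had 225 and 228 CPM. The share of barcodes with a UMI in these 5 classes lay between 11.7% and 50.0%, at shallower depth, and how much of it is free RNA was not tested. Its parent Rpl39 had 1870 CPM in keratin-positive and 1047 CPM in macrophage-like control barcodes.

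Between the libraries Rpl39l did not follow its parent. Rpl39 had a log2 ratio of 0.53 in keratin-positive barcodes and Rpl39l 0.06 (interval 0.03 to 0.08), although both encode 51 codons. Rps27l, a p53-responsive paralogue of Rps27, likewise had 0.02 (interval -0.00 to 0.04) where Rps27 had 0.39. Rps27l was the more even paralogue across classes, from 805 and 815 CPM in keratin-positive to 340 and 309 CPM in neutrophil-like barcodes.

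Rps4l, the intronless relative of Rps4x at chr6:148354656-148355598, had its highest level in fibroblast-like barcodes. It had 52 UMIs (78.8 CPM) in control and 139 UMIs (126 CPM) in antibody fibroblast-like barcodes, of 146 and 356 in the whole libraries. Keratin-positive barcodes had 6 UMIs in 42579755 and 10 in 34240609, which places fibroblast-like barcodes 559-fold (interval 240 to 1592) and 430-fold (227 to 917) higher. Macrophage-like barcodes had 12 and 54 UMIs (2.44 and 5.75 CPM), and neutrophil-like barcodes had 0 and 0, which allows up to 13.8 and 9.77 CPM. NK-like barcodes had 1 and 5 UMIs (4.20 and 11.7 CPM). CD8 T-like ones had 0 and 14 UMIs, the latter 5.42 CPM. Over all filtered barcodes, 66.4% (interval 58.2 to 74.0) of control and 74.4% (69.6 to 78.9) of antibody Rps4l UMIs lay in barcodes with a Y-linked UMI, which held 5.21% and 16.2% of all UMIs. Fibroblast-like barcodes were chosen for a Y-linked UMI, and keratin-positive ones for none. Of the parent gene Rps4x, 3.77% and 13.3% of the UMIs lay in those barcodes.

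**Figure D5:**
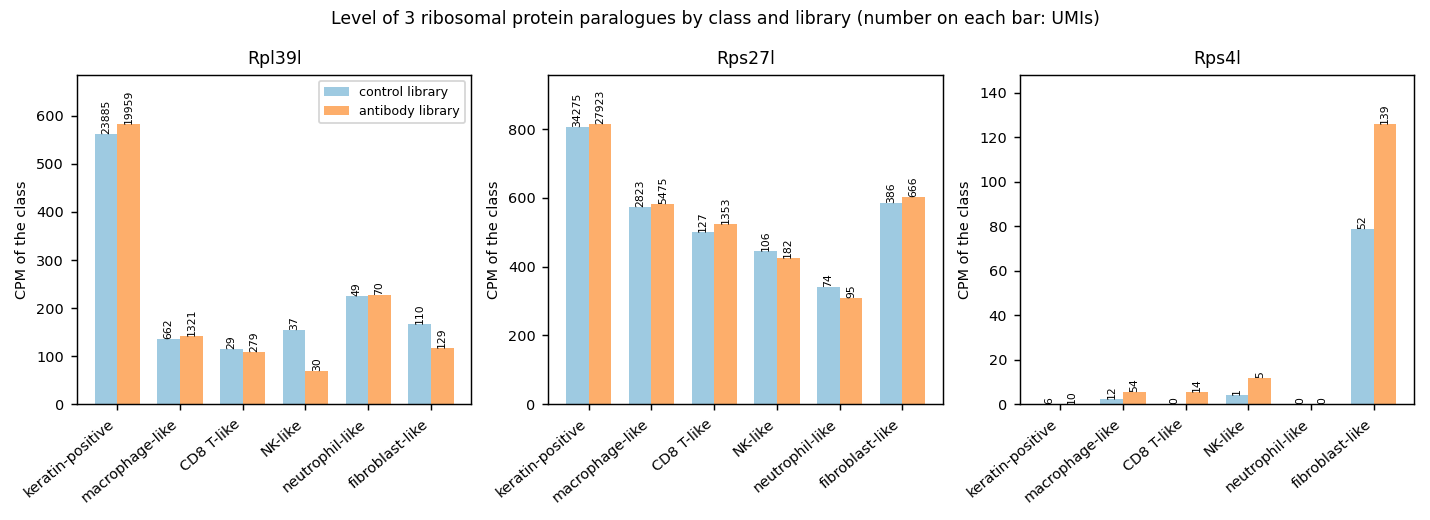
CPM of Rpl39l, Rps27l and Rps4l (vertical axes, 1 panel each) by class in the control and antibody libraries, with the number of UMIs printed on each bar. Rpl39l is highest in keratin-positive barcodes at 561 and 583 CPM, and Rps4l in fibroblast-like barcodes at 78.8 and 126 CPM.

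Rpl3l, a muscle-specific relative of Rpl3, had 36 and 45 UMIs in the whole libraries. Rpl32l had 7 and 7 UMIs in keratin-positive barcodes and 0 in the other 5 classes of both libraries. Rpl6l had 875 and 540 UMIs in keratin-positive barcodes (20.5 and 15.8 CPM) and 73 and 87 in macrophage-like ones. As processed copies Rpl32l and Rpl6l may share reads with their parent genes, which was not tested.

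Genes that work with the ribosome were counted from fixed lists. All 28 ribosome biogenesis genes had at least 20 counts in keratin-positive barcodes. Of them 3 were at least 2-fold higher in the antibody library and 0 lower, beside 10.3% and 4.67% of all genes. Their median was -0.27 beside -0.19 for all genes. The highest were Gar1 (2.11), a core protein of H/ACA ribonucleoprotein particles, and Rrp9 (1.17). In macrophage-like barcodes 1 of 28 was higher and 1 lower, with a median of -0.50, beside 8.87% and 4.44% of all genes and a median of -0.17. Of 20 other TOP and translation genes 1 was at least 2-fold higher in keratin-positive barcodes and 0 lower, beside 10.3% and 4.67% of all genes. Their median was -0.17, and the higher gene was Tpt1, the translationally controlled tumour protein. Tpt1 had 1495 and 20885 CPM (3.80) and log2 ratios of 3.18 to 3.80 over the 6 classes. The elongation factor genes Eef1a1 (14063 and 11315 CPM, -0.31) and Eef2 (-0.74) were lower. Ribosomal protein genes outside the name rule lay within the family's band, with Rps3a1 at -0.41, Rack1 at -0.46 and Fau at -0.04 in keratin-positive barcodes. Of 11 genes of ribosome stress and mTOR control 1 was at least 2-fold higher there and 0 lower, beside the same 10.3% and 4.67%. The higher gene was Eif4ebp1 (2.15), which encodes the translation repressor 4E-BP1. Of 79 mitochondrial ribosomal protein genes 10 were 2-fold higher and 0 lower, beside the 10.3% and 4.67% of all genes, with Mrps24 (4.06) and Mrps34 (3.67) highest.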

How the data were processed

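The authors deposited 1 table of UMI counts per library, gene by barcode, in whole numbers. The submitters' processing notes name Cell Ranger 7.2.0, Seurat and mm10. Their order and settings are not given in the sources used here. Kept barcodes had 200 genes or more, 500 UMIs or more and less than 20% mitochondrial UMIs (13863 control, 12061 antibody). A class other than keratin-positive needed 3 UMIs from 2 panel genes (3 genes for macrophages) and a minimum panel level. Barcodes in 2 gates were dropped (13 and 26), and a class needed 50 barcodes in each library. Gate minimums were set after the marker counts were seen, and the members, markers and lists were chosen with earlier results of these data known. Named were members standing 1 log2 unit from the family median in 3 classes with 100 counts, the extreme 3 ratios of each class at either end among members with 100 counts, the extreme 5 class differences, and paralogues. Others were named for their role after their values were seen. Counts were summed per class and set against the class total. Log2 ratios used a prior count of 0.5 and exact conditional binomial 95% intervals, and summaries used genes with 20 counts. The code was tested on simulated data. Gene features came from GENCODE M21. Analysis used Python 3.11.15 with scanpy 1.11.5 (its Scrublet marked 11.1% of control and 9.65% of antibody barcodes, which were kept) and scipy 1.17.1. The alternatives were other scalings, filters, gates and count minimums, doublet removal and thinning to 1000 UMIs. Some genes are not reported here.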

Additional observations from a re-analysis of the deposited data

How the results depend on the processing

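Rpl13 and Rps2 kept their direction in all 47 values computed for each, from 2.93 to 4.60 and from 2.48 to 4.65. The 1535 alternative values cover library ratios of 20 named members, class differences of members named per class and rank correlations with codons. Of these, 980 stayed within the interval of the main value and 546 lay outside it. The other 9 changed sign where the main interval excluded 0. Median-of-ratios scaling gave family medians, in the order keratin-positive, macrophage-like, CD8 T-like, NK-like, neutrophil-like, fibroblast-like, of 0.07, -0.05, 0.21, 0.02, -0.31 and 0.13, and share ratios of 0.10, -0.05, 0.23, 0.02, -0.34 and 0.17. It left 2 neutrophil-like members past 2-fold. Class differences from keratin-positive (control, then antibody) were -0.65 and -0.80 in macrophage-like, -0.48 and -0.47 in CD8 T-like, -0.55 and -0.94 in NK-like, -0.65 and -1.43 in neutrophil-like, plus -0.86 and -0.79 in fibroblast-like barcodes. Rpl18 in CD8 T-like barcodes turned to 0.09, the control class difference of Rpl11 there to -0.02, and the antibody class difference of Rps14 in NK-like barcodes to -0.14. A total without ribosomal protein, mitochondrial and haemoglobin genes gave share ratios of -0.11 in keratin-positive, -0.27 in macrophage-like, -0.22 in NK-like and -0.65 in neutrophil-like barcodes. Its class differences were -0.85 and -1.03 in macrophage-like, -0.38 in antibody CD8 T-like, -0.56 and -0.69 in NK-like, -1.0 and -1.55 in neutrophil-like, plus -0.91 and -0.87 in fibroblast-like barcodes. A stricter marker gate gave an NK-like share ratio of -0.15 and control class differences of -0.64 in macrophage-like, -0.26 in CD8 T-like, -0.75 in neutrophil-like, plus -0.69 in fibroblast-like barcodes. Without Scrublet-marked barcodes the share ratios were -0.09 in keratin-positive, -0.28 in macrophage-like, -0.02 in CD8 T-like, -0.16 in NK-like and -0.36 in neutrophil-like barcodes. The neutrophil-like median was then -0.35 with 5 members past 2-fold, and Rpl39l in NK-like barcodes turned to 0.59. Class differences were -0.94 and -1.13 in macrophage-like, -0.46 and -0.37 in CD8 T-like, -1.77 and -2.06 in neutrophil-like, plus -0.84 and -0.83 in fibroblast-like barcodes. Thinning to 1000 UMIs gave share ratios of -0.06 in keratin-positive, -0.33 in macrophage-like, -0.07 in CD8 T-like, -0.29 in NK-like and -0.22 in fibroblast-like barcodes, and family medians of -0.28 in NK-like and -0.29 in fibroblast-like ones. Class differences were -0.86 and -1.13 in macrophage-like, and in the antibody library -0.42 in CD8 T-like, -0.80 in NK-like, -1.49 in neutrophil-like, plus -0.98 in fibroblast-like barcodes. Rpl39l turned to -0.04 in keratin-positive and 0.45 in fibroblast-like barcodes, and Rpl36 in NK-like ones to -0.08. Past 2-fold were 5 NK-like members both with thinning and without a count minimum. The settings that follow were chosen after seeing the data. With each barcode weighted equally the share ratios were -0.06, -0.30, -0.08, -0.26, -0.34 and -0.21 in the order above, and the medians -0.25 in NK-like, -0.33 in neutrophil-like, plus -0.24 in fibroblast-like barcodes. Class differences were -0.84 and -1.10 in macrophage-like, -0.43 in antibody CD8 T-like, -0.55 and -0.78 in NK-like, -1.80 and -2.08 in neutrophil-like, plus -0.82 and -0.96 in fibroblast-like barcodes, and Rpl39l in NK-like ones turned to 0.29. With the keratin requirement dropped the keratin-positive share ratio was -0.14, and antibody class differences were -0.81 in macrophage-like, -1.29 in neutrophil-like, plus -0.68 in fibroblast-like barcodes. In keratin-positive barcodes of 10000 to 20000 UMIs the share ratio was 0.02 and Rpl39l -0.02. The causes were not tested. Some classes fell under the 50 barcodes needed in a library and gave no library ratio. These were keratin-positive barcodes under the stricter gate (87 control and 37 antibody) and neutrophil-like ones under the stricter filter (28 and 46) and thinned (31 and 54). Class differences within a library were given where both classes had 50 barcodes there. No paired analysis was possible because each group has 1 library.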
